A study of Mus musculus with 80 samples.

Results

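The reporters described here are those inserted closest to the centromeric ends of the mouse autosomes. They were chosen by position alone, as every reporter of the deposited table on chromosomes 1 to 19 that lies below 10000000 bp in the mm9 build. That rule took 553 of the 10903 reporters of 4 pools and of the 10692 autosomal ones: 101 in pool A, 123 in pool B, 162 in pool C and 167 in pool D. A minimum of 10 DNA counts in each of a pool's 8 DNA libraries kept 548 of the 553, against 10785 of all reporters, and the 5 others were not analysed further. The 548 were compared with the 10028 autosomal reporters further in that passed the same minimum, called the interior here.

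All cells were EBRTcH3, embryonic stem cells of the mouse in which the ROSA26 promoter, at its own locus, expresses the tetracycline-controlled transactivator. A library of barcoded piggyBac tet-Off plasmids was integrated with mPB transposase, the low-eGFP fraction was sorted and expanded for 5 days, and small pools taken from it were grown for 7 days. Each pool was then divided into 2 cultures, kept apart for another 7 days, and each culture was given doxycycline at 0, 0.01, 0.1 or 100 ng/ml for 72 hours. RNA and DNA barcodes were then counted, for 2 cultures per pool and dose. All groups share the cell line, the transactivator, the transposon and the low-eGFP sort, and within a pool differ only in dose, so the cultures without doxycycline (dox 0) are the reference. The protocol fields speak of a mouse PGK promoter while titles and construct fields say tet-Off. The titles were followed. The labels call the 2 cultures technical replicates, so tests within a pool measure the spread between cultures of 1 pool. Only barcodes were counted, so the labelled cell type could not be checked against marker genes.

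Mouse autosomes are acrocentric: the centromere sits at one end, and numbering starts there. Arrays of satellite repeats around it are packed as constitutive heterochromatin, which carries H3K9 methylation and is known to silence genes placed beside it, the classic form of position effect. Those arrays are not part of the assembled sequence, and the first reporter of any autosome lay at 3046674 bp, so the reporters here sit beyond the satellite arrays and not within them. In a tet-Off reporter the transactivator binds the promoter and drives it, and doxycycline takes the transactivator off, so RNA that remains at a high dose is made with little or no drive from it.

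Each reporter is identified by the random barcode in its transcript, which was read both in cDNA and in genomic DNA. The barcodes of 7 of the reporters below are given because the results turn on them. The first 5 are those called higher at 100 ng/ml with the largest change, and the last pair are neighbours in 1 pool that lie among the 5 closest to any chromosome start. No base is marked, since the barcode has no function beyond naming its reporter.
Pool D, chromosome 19, 5842667: tgaccaaaggctccta
Pool B, chromosome 9, 7798801: attaagaccttcgcct
Pool B, chromosome 6, 7632443: acttgaccatttcaat
Pool D, chromosome 7, 3211834: ttgatatgaacgcaca
Pool D, chromosome 3, 9112108: tagacttttatgagac
Pool B, chromosome 11, 3057638: tctattgagctaaaaa
Pool B, chromosome 11, 3060547: ctaccaaacgatatca
Of the 553 barcodes, 548 had 16 bases. Their mean GC content was 42.1% (SD 12.3), beside 41.1% (SD 12) in the interior. No barcode occurred more than once within a pool, and 45 of the reporters shared theirs with a reporter of another pool.

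Reporters were about as dense in these chromosome ends as elsewhere, at 4.16 per Mb over 133 Mb against 4.46 per Mb in the interior. Their number past the minimum ran from 5 on chromosome 14, where 5 of the 7 Mb held none, to 48 on chromosome 16. The transposon lay on the plus strand in 47.1% of them and in 49.6% of the interior. Within 10 kb of another such reporter lay 96 (17.5%), against 20.7% in the interior, and neighbours of this kind share their surroundings and are not independent. The median DNA count at dox 0, scaled to library totals as CPM, was 291 ± 48.1 (SD, n = 4 pools) in the chromosome ends and 294 ± 49.9 in the interior. Totals ran from 729552 to 1840870 counts for RNA and from 928128 to 1571280 for DNA libraries. The median RNA count of a reporter was 179 to 327 over the libraries at dox 0 and 0 in every library at 100 ng/ml. The counts come from PCR products without molecular identifiers, so floors and bounds given here cover counting error only.

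The level of a reporter is the log2 of its RNA share over its DNA share, averaged over both cultures, with the mean of all autosomal reporters of that pool and dose set to 0. It shows where a reporter stands among the others at one dose and not how far all of them dropped. Without doxycycline, reporters near the centromeric ends stood lower than the interior in each of the 4 pools. The difference in mean level was -0.43 in pool A, -0.44 in pool B, -0.25 in pool C and -0.47 in pool D, a mean of -0.40 ± 0.10 (SD, n = 4 pools). All 8 cultures gave a value below 0, from -0.47 to -0.20. The exact two-sided permutation test over 4 pools gave p = 0.13, the smallest it allows, and an adjusted p of 0.292 over the 14 tests of this kind, so 4 pools cannot pass 0.05 here. The shift was small against the spread among reporters, and the ranges overlapped almost wholly: levels ran from -11.52 to 5.84 with a median of -0.31, and in the interior from -12.97 to 6.25 with a median of 0.18. Levels above 0 were found for 45.6% of the reporters near the ends and 53.3% of the interior.

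The difference depended on which interior was compared. Against the reporters from 10 to 20 Mb alone, those below 10 Mb were higher by 0.32 ± 0.17 at dox 0, in 4 of 4 pools (exact permutation p = 0.13). With a boundary at 5 Mb they were higher than everything further in by 0.31 ± 0.40 (exact permutation p = 0.25). The low levels were thus not limited to the first 10 Mb. Whether they ran throughout them depended on chromosomes 7 and 19, singled out after their values were seen. Without both, the mean levels at dox 0 were -0.19 from 3 to 4 Mb and -0.19 from 4 to 5 Mb. The first comparison and its dose series were chosen after the levels by distance had been seen.

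At 0.01 ng/ml the differences from the whole interior were -0.34, -0.42, -0.30 and -0.47 in pools A to D, a mean of -0.38 ± 0.08 (exact permutation p = 0.13), again with all 8 cultures below 0. At 0.1 ng/ml the pools parted, with 0.05 in pool A and 0.03 in pool C but -0.39 in pool B and -0.40 in pool D (mean -0.18 ± 0.25, exact permutation p = 0.5). The highest dose gave 0.27, -0.24, 0.36 and -0.04, a mean of 0.09 ± 0.28 (exact permutation p = 0.625). The gap in mean level seen at the lowest doses was therefore closed in pools A and C, nearly closed in pool D and still open in pool B. At 100 ng/ml, 46.7% of the reporters near the ends and 48.4% of the interior had no RNA count in either culture. Their levels at that dose reflect only their DNA counts and the 1 count added to RNA, which limits what the means show about expression.

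**Figure D1:**
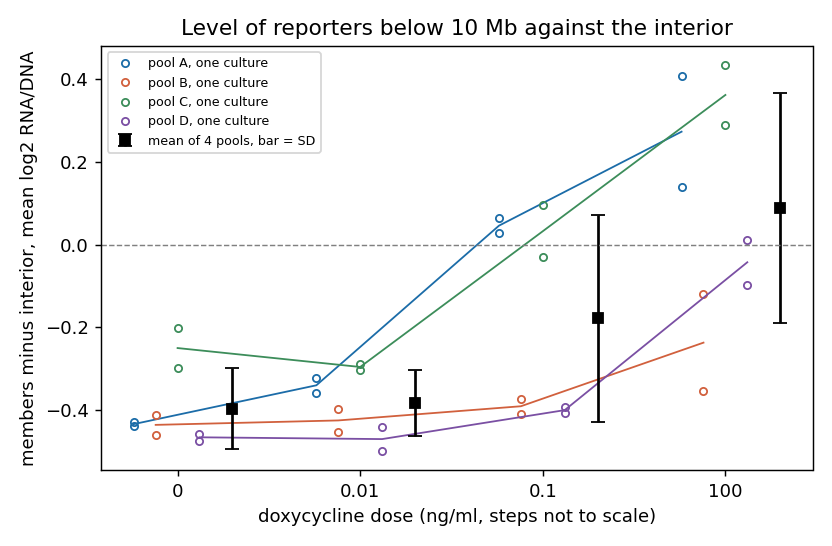
Mean level (log2 RNA over DNA) of reporters below 10 Mb minus that of the interior, by doxycycline dose in ng/ml. Open circles are single cultures of each pool, black squares the mean of 4 pools and bars the SD; all 8 cultures lie below 0 at dox 0 and 0.01 ng/ml, 5 of 8 at 0.1 ng/ml and 3 of 8 at 100 ng/ml.

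From dox 0 to 100 ng/ml the difference moved up by 0.71, 0.20, 0.61 and 0.42 in pools A to D, or 0.49 ± 0.22 on average (4 of 4 pools, exact permutation p = 0.13). Over the 4 doses in order it rose by 0.17 per dose step, and permuting the doses within pools gave an exact two-sided p = 4.82e-05, adjusted to 0.000675 over 14 tests. That test treats the doses of a pool as exchangeable, and all doses of a pool hold the same reporters. Its p does not measure the spread over other insertions or other pools. Against the 10 to 20 Mb interior the slope was 0.05 per step and the call was lost (exact permutation p = 0.294). There the difference was already 0.32 at dox 0 and was 0.41 at 100 ng/ml. The spread among reporters widened at the same time: the SD of levels after removing the noise between cultures went from 2.20 ± 0.07 at dox 0 to 3.50 ± 0.12 at 100 ng/ml near the ends, and from 1.97 to 3.42 in the interior. The correlation between cultures was 0.886 to 0.939 at dox 0 and 0.697 to 0.761 at 100 ng/ml near the ends, so levels at the highest dose were the least precise.

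RNA became undetectable about as often near the ends as elsewhere. Reporters with no RNA count in either culture made up 0.52%, 0.93%, 20.1% ± 4.28 and 46.4% ± 2.16 (SD, n = 4 pools) of the set at the 4 doses in rising order, and 0.25%, 0.54%, 18% ± 1.82 and 48.1% ± 2.25 in the interior. The difference at 100 ng/ml was -1.69 ± 2.13 percentage points (exact permutation p = 0.25). It turned to 0.77 when the second culture was left out, and its trend over doses was -0.42 points per step (exact permutation p = 0.466). Of the 548 reporters, 163 still had RNA in both cultures at 100 ng/ml, 129 in 1 culture and 256 in neither. RNA was counted in all 8 RNA libraries of the pool for 155 reporters (28.3%, against 29.5% of the interior), and in none of them for 2.

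The opposite chromosome end offers a further comparison, since it lacks pericentromeric satellite arrays but is also an end. The 651 reporters within 7 Mb of the highest reporter position of each autosome stood above the remaining interior by 0.34 ± 0.23 at dox 0. Reporters near the centromeric end lay below these by 0.71 ± 0.23 at dox 0, the difference being -1.03, -0.50, -0.59 and -0.74 in pools A to D. The mean difference was -0.69 ± 0.21 at 0.01 ng/ml and -0.52 ± 0.29 at 0.1 ng/ml, again negative in 4 of 4 pools (exact permutation p = 0.13 at each of these 3 doses, adjusted p = 0.292). It was -0.17 ± 0.19 at 100 ng/ml, negative in 3 of 4 pools (exact permutation p = 0.25). The mean difference between the 2 kinds of chromosome end was smallest at the highest dose, also with a pseudocount of 0.1 (-0.75, -0.77, -0.79 and -0.28 at the 4 doses) and without chromosomes 7 and 19 (-0.997, -1.01, -0.89 and -0.62). A trend of this difference was not tested.

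Distance from the chromosome start did not give a steady gradient. At dox 0 the 78 reporters from 3 to 4 Mb had a mean level of 0.32 ± 0.31 (mean and SD of 4 pools) and the 84 from 4 to 5 Mb 0.29 ± 0.70, both above the autosomal mean of 0. The level then dropped: it was -0.73 ± 0.43 for the 85 reporters from 5 to 6 Mb, -0.37 ± 0.65 for the 75 from 6 to 7 Mb and -0.95 ± 0.86 for the 54 from 7 to 8 Mb. The last of these bins held only 8 reporters in its smallest pool. The 92 reporters from 8 to 9 Mb stood at -0.76 ± 0.59 and the 80 from 9 to 10 Mb at -0.69 ± 0.23, with no return at the boundary: over all reporters of a bin the mean was -0.83 from 10 to 11 Mb (87 reporters) and -0.82 from 11 to 12 Mb (68). The lowest bin of the first 20 Mb lay outside the boundary, from 15 to 16 Mb, at -1.53 over 40 reporters. The pair of bins nearest the start did not stand above 0 without chromosomes 7 and 19, when their means were -0.19 over 58 reporters and -0.19 over 69.

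**Figure D2:**
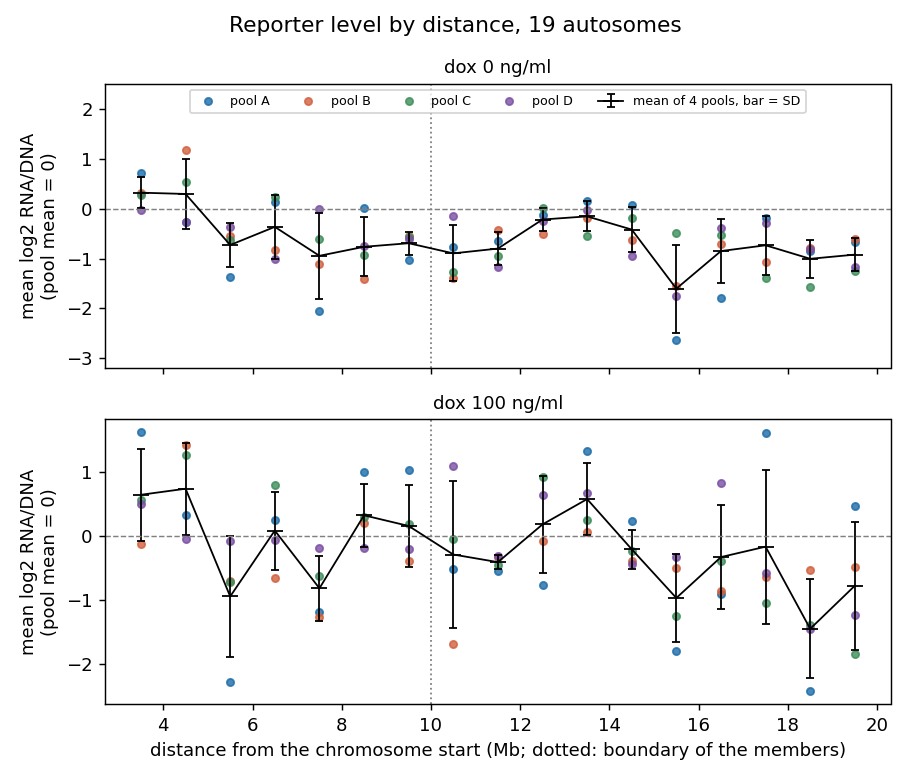
Mean level of autosomal reporters in 1 Mb bins from the chromosome start, at dox 0 and at 100 ng/ml, with the mean of a pool's autosomal reporters as 0. Coloured points are pools, black lines the mean of 4 pools with its SD; at dox 0 the bins from 3 to 5 Mb lie above 0, those from 5 to 10 Mb below, and low bins go on beyond the dotted boundary.

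With 100 ng/ml the same bins from 3 to 10 Mb had mean levels of 0.64, 0.69, -0.71, 0.13, -0.80, 0.24 and 0.13 over their reporters. Without chromosomes 7 and 19 they were -0.0018, 0.35, -1.07, -0.42, -0.89, -0.26 and -0.024. The bins from 5 to 6 and from 7 to 8 Mb were thus the lowest in both cases, while the signs of 4 of the 7 bins turned with these chromosomes. The share without RNA at this dose was lowest in the first pair, 38.5% and 34.5%, and highest from 7 to 8 Mb, 59.3%. In the other bins it was 47.8% to 51.8%, close to the 48.1% of the interior.

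Single reporters beside the boundary are given as a description. The 3 last inside it, on chromosomes 11, 1 and 11 at 9998492, 9989014 and 9963065, had levels of -3.07, -1.86 and -4.16 at dox 0. The 3 first beyond it, on chromosomes 2, 3 and 16 at 10001417, 10022885 and 10027098, had 0.91, -1.66 and -2.31.

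The difference was not alike on all chromosomes, though whether they differ was not tested. Within single chromosomes, the mean level at dox 0 was below that of the same chromosome's interior in 14 of 19, with a median difference of -0.59. The lowest value was -1.99 on chromosome 9 (18 reporters, below 0 in each of the 3 pools that had any), followed by -1.52 on chromosome 4 (31 reporters), where the 4 pools gave -1.19, -1.92, -2.19 and -1.07. Chromosomes 5, 13, 2 and 1 gave -1.24, -1.23, -1.18 and -1.01, each below 0 in 4 of 4 pools. Chromosomes 12, 14, 16 and 17 were within 0.20 of their interior.

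Chromosomes 7 and 19 went the other way. The 26 reporters of chromosome 7 stood above that chromosome's interior by 1.44 at dox 0, and by 1.13, 2.02, 1.55 and 1.06 in pools A to D. The 40 of chromosome 19 stood above theirs by 1.38, and by 2.37, 0.99, 1.69 and 1.12. No pool of either chromosome fell below 0, and the 2 chromosomes carried 66 of the 548 reporters. They were singled out after their values were seen, and the difference from the interior without both of them is given with the alternatives.

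**Figure D3:**
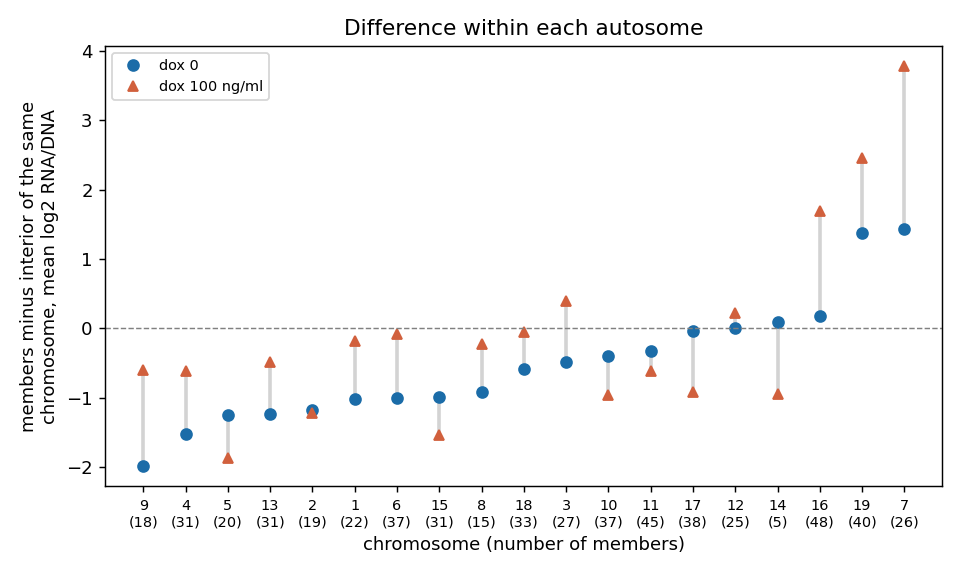
Mean level of the reporters below 10 Mb minus that of the interior of the same autosome, with chromosomes ordered by their value at dox 0 (circles; triangles are 100 ng/ml) and the number of reporters under each name. Chromosome 9 is lowest at dox 0 with -1.99, and chromosomes 19 and 7 highest with 1.38 and 1.44; at 100 ng/ml they are at 2.45 and 3.79.

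The number of chromosomes below their interior at 100 ng/ml was again 14 of 19, and 13 were below it at both dox 0 and 100 ng/ml. The median difference over chromosomes was -0.49, beside -0.59 at dox 0, and 12 of 19 stood above their own difference at dox 0. The positive values were larger. Chromosome 7 reached 3.79 (3.96, 5.23, 3.53 and 3.16 in pools A to D), chromosome 19 reached 2.45 (3.45, 0.87, 2.60 and 3.63) and chromosome 16 reached 1.69 (3.45, 2.40, 1.47 and 0.25). Of the 26 reporters of chromosome 7, 4 (15.4%) had no RNA at this dose, against 44.3% of its interior. The shares were 25% against 49.2% on chromosome 19 and 35.4% against 47.7% on chromosome 16. The 3 were chosen for their levels, and these values were not tested. Chromosomes 8 and 12, with levels nearer to their interior, also had smaller shares without RNA, 33.3% against 50.7% and 40.0% against 51.9%. Without chromosome 7, without chromosome 16 or without chromosome 19, the mean difference at 100 ng/ml turned from 0.09 to -0.09, -0.10 and -0.09.

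In windows of 1 Mb on single chromosomes, 49 of which held at least 5 of the reporters, the highest at dox 0 were 4 to 5 Mb of chromosome 7, at 2.64 (SD 2.25 over 7 reporters), 8 to 9 Mb of chromosome 19, at 2.27 (SD 1.03 over 7), and 5 to 6 Mb of chromosome 19, at 2.07 (SD 0.84 over 5). The 2 windows of chromosome 19 stood at 6.31 (SD 4.94) and 5.03 (SD 7.23) at the highest dose, with 1 reporter without RNA in each. They were not uniformly high: 2 reporters were called lower and 4 higher in the first. In the second 2 were called lower and 3 higher, beside 50.4% and 10.9% of all reporters at 100 ng/ml. The lowest were 8 to 9 Mb of chromosome 18, at -4.28 (SD 2.31 over 5), 9 to 10 Mb of chromosome 4, at -2.47 (SD 1.43 over 5), and 9 to 10 Mb of chromosome 17, at -2.13 (SD 1.97 over 5). In these 3 windows 4, 5 and 4 of the 5 reporters had no RNA at 100 ng/ml. None of these 15 reporters was called higher at 100 ng/ml, against 10.9% of all reporters. With so few reporters this cannot be told apart from that share. The 3 windows were named for their level at dox 0, and others held as few reporters with RNA at the highest dose, such as 6 to 7 Mb of chromosome 15, where all 6 were without it.

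Changes of single reporters were tested with edgeR's quasi-likelihood test of RNA against DNA in each pool, at an adjusted p below 0.05 over all reporters of the pool. At 0.01 ng/ml none of the 548 was called lower or higher by edgeR. An unadjusted edgeR p below 0.05 was found for 28 of the 548, beside 532 of all 10785 reporters. DESeq2's Wald test called 2 lower and 3 higher, counted among the 548 only. Over all 10785 reporters edgeR called 0.0% lower and 0.0185% higher at this dose. At 0.1 ng/ml 99 (18.1%) were called lower, against 19.8% of all reporters, and 52 (9.49%) higher, against 9.07%. Their median log2 change was -0.63, beside -0.80 over all. These shares were near the background of all reporters. With 1 dox 0 replicate left out there were fewer calls: 66 lower and 35 higher without the first, and 63 and 34 without the second.

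At 100 ng/ml 246 (44.9%) were called lower, against 50.4% of all reporters, and 65 (11.9%) higher, against 10.9%, and 237 passed in neither direction. The median log2 change was -3.25 near the ends and -4.12 over all reporters. Where no RNA is left, the size of a measured drop is limited by the RNA counts at dox 0. Their median ran from 155 to 258 over the pools near the ends and from 193 to 313 in the interior. Whether this bears on the changes and shares was not tested. In pools A to D 42.6%, 48.8%, 45.6% and 42.7% were called lower, against 51.4%, 48.9%, 51.6% and 51.0% of the interior, so that pool B alone had nearly equal shares. Of the 246, 213 had no RNA count left at 100 ng/ml, and of the 65 called higher 64 had RNA in both cultures. Those called lower had a median level of -0.64 at dox 0 and those called higher one of 1.20. Higher means higher after the libraries were scaled to a common composition. That scaling did not set the typical change to 0, since the median over all reporters was -4.12. A call is therefore not a comparison with the pool's median reporter. Scaled by library totals instead, 296 were lower and 39 higher. This moves the higher share of the calls from 20.9% to 11.6%, and at 0.1 ng/ml from 34.4% to 15.4%. With DESeq2's size factors it was 13.8% and 18.1%. Over all reporters that share moved in the same direction. It went from 17.8% to 8.72% with totals and 11.2% with size factors at 100 ng/ml, and from 31.4% to 11.5% and 14.1% at 0.1 ng/ml. These scalings moved the median change over all reporters at 100 ng/ml from -4.12 to -5.15 and -4.83, and at 0.1 ng/ml from -0.80 to -1.96 and -1.76.

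The calls of both doses are set side by side, though both comparisons share the libraries without doxycycline. Of the 99 reporters called lower at 0.1 ng/ml, 90 were also called lower at 100 ng/ml, and of the 52 called higher 44 were also called higher. Another 154 were called lower at 100 ng/ml but not at 0.1 ng/ml, and 2 went from a higher call to a lower one. These overlaps were counted for the reporters near the ends only and were not compared with the interior. They therefore do not show whether calls persisted more often near the ends than elsewhere. By chromosome, 14 of 48 reporters on chromosome 16, 9 of 40 on chromosome 19 and 8 of 26 on chromosome 7 were called higher at 100 ng/ml. These 31 of 114 (27.2%) compare with 115 of 1141 (10.1%) in the interior of the same chromosomes and 34 of 434 (7.83%) on the other chromosome ends. The 3 chromosomes were chosen after these values were seen.

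Reporters called lower showed how complete the loss could be. In pool B, the reporter at 3057638 of chromosome 11 had 2182 and 2319 RNA counts in the 2 cultures without the drug. It had 2406 and 2727 at 0.01 ng/ml, 666 and 583 at 0.1 ng/ml and none at 100 ng/ml. Its DNA counts stayed between 280 and 483 throughout. Against the floor of 3 counts over both cultures, its RNA over DNA was at least 727-fold lower at 100 ng/ml than at dox 0 (edgeR adjusted p = 1.78e-06). In pool A, the reporter at 5438940 of the same chromosome went from 1897 and 2313 RNA counts to 273 and 333 at 0.1 ng/ml and to none at 100 ng/ml, at least 911-fold lower (edgeR adjusted p = 8.88e-07). In both, the raw counts at 0.1 ng/ml lay below every count at the lower doses, and those at 100 ng/ml were 0. After the scaling of libraries, however, the pool B reporter was not called at 0.1 ng/ml (log2 change -0.11 ± 0.47, edgeR adjusted p = 0.905). Its level was 3.22 at dox 0 and 4.23 at 0.1 ng/ml.

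Strong reporters could also keep some RNA. The 5 called lower at 100 ng/ml with the most RNA at dox 0 lay on chromosomes 19, 19, 16, 7 and 16, and all 5 had RNA in both cultures at the highest dose. The chromosome 19 reporter of pool B at 4015701 dropped from 6404 and 6183 counts to 159 and 97. Its log2 change was -2.96 ± 0.42 (approximate SE, edgeR adjusted p = 0.000126). The one of pool A at 8861663 had 5120 and 5775 counts and then 133 and 328, a change of -3.22 ± 0.46. Both stood near 3 at dox 0 and still at 2.62 and 2.91 at 100 ng/ml, well above the mean of their pools. The median log2 change at this dose was -3.36 over all reporters of pool B and -4.10 over those of pool A. On chromosome 16, the pool A reporter at 8835067 is 1 of the 2 that changed direction: its counts were 3778 and 4187 at dox 0, 5090 and 4500 at 0.1 ng/ml and 93 and 103 at 100 ng/ml. Its log2 change was 1.53 ± 0.42 at 0.1 ng/ml and -4.23 ± 0.44 at 100 ng/ml (edgeR adjusted p = 0.0158 and 1.52e-05). On the same chromosome, the pool C reporter at 4601144 fell by 3.85 ± 0.53, from 3706 and 4088 counts to 146 and 78. On chromosome 7, the pool B reporter at 4074935 fell by the least, with a change of -1.32 ± 0.49 (edgeR adjusted p = 0.0343), and lost the call without either dox 0 replicate (adjusted p = 0.167 and 0.112). Its level was 3.96 at dox 0 and 5.18 at 100 ng/ml, so level and log2 change differed in direction.

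The 5 reporters called higher at 100 ng/ml with the largest change had more RNA counts there than at dox 0, in libraries with smaller totals. For the pool D reporter at 5842667 of chromosome 19, the 2 cultures held 3374 and 3169 RNA counts without the drug. They held 5298 and 3722 at 0.01 ng/ml, 26846 and 22105 at 0.1 ng/ml and then 108935 and 80959 at the top dose. Its DNA counts ranged from 661 to 1098. The log2 change from dox 0 was 5.09 ± 0.26 at 0.1 ng/ml and 6.94 ± 0.27 at 100 ng/ml (edgeR adjusted p = 5.53e-07 and 5.08e-08). Counts of successive doses did not overlap, and this reporter was the highest of all 548 at the top dose, at a level of 11.78.

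The 4 others with the largest gains lay on different chromosomes. On chromosome 9, the pool B reporter at 7798801 went from 297 and 277 RNA counts to 2779 and 3039 at 0.1 ng/ml and to 2753 and 6128 at the top dose (log2 change 6.43 ± 0.52, edgeR adjusted p = 2.93e-06). On chromosome 6, the pool B reporter at 7632443 had 193 and 244 counts, then 1109 and 637, then 2172 and 2401 (6.09 ± 0.45, edgeR adjusted p = 1.80e-06). Both had stood at or below the mean of their pool at dox 0, with levels of -0.18 and -1.66. In pool D, the chromosome 7 reporter at 3211834 went from 3355 and 3464 counts to 47439 and 46785 (5.98 ± 0.51), and that on chromosome 3 at 9112108 went from 1144 and 1409 to 16422 and 20751 (5.94 ± 0.27). Gains of this size were therefore found in reporters that began strong and in reporters that began weak.

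**Figure D4:**
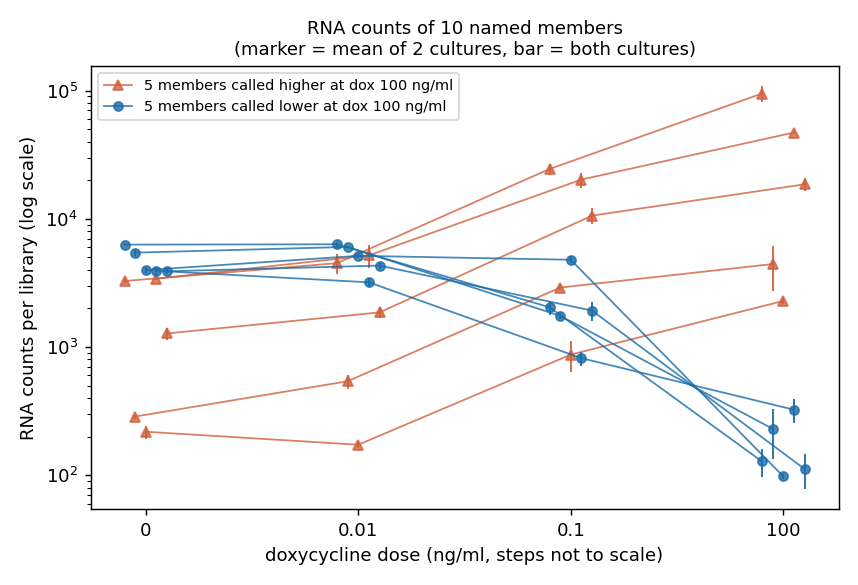
RNA counts per library (log axis) by doxycycline dose in ng/ml for the 5 reporters called higher at 100 ng/ml with the largest change and the 5 called lower with the most RNA at dox 0; markers are the mean of 2 cultures and bars span both. The first set climbs from 193 to 3464 counts at dox 0 to between 2172 and 108935 at 100 ng/ml, and the second drops from 3706 to 6404 counts to between 78 and 395.

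Other reporters that were high at 100 ng/ml lay on chromosomes 16 and 4. In pool A, the chromosome 16 reporter at 8780057 reached a level of 11.19, its RNA going from 1394 and 1715 counts without the drug to 9175 and 12457. Its pool C counterpart at 9454886 reached a level of 10.80 with 6642 and 7072 counts, though its DNA at dox 0 was 211 and 20, so its starting level is imprecise. On chromosome 4, the pool A reporter at 3761472 reached 10.78 with 16386 and 19782. The reporters near the ends made up 4.60% to 5.55% of a pool's autosomal reporters past the DNA minimum. They took 3.48% to 5.16% of the RNA counts of those autosomal reporters per library at dox 0. Their share at 100 ng/ml was 17.7% and 15.7% in the cultures of pool D, 7.18% and 7.32% in pool C, 5.26% and 5.35% in pool B and 4.46% and 4.70% in pool A. A single reporter supplied 48.9% and 42.1% of that RNA in pool D, and 17.0% to 34.5% in the other pools.

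The extremes at dox 0 rested on uneven counts in part. The highest level, 5.84, belonged to a pool B reporter at 4971289 of chromosome 7, whose RNA was 3779 and 4087 counts but whose DNA was 248 and 48. The next, 5.81, was the pool B reporter on chromosome 11 at 4167271, whose DNA counts were 11 and 174. Agreement between cultures was better for the pool C reporters on chromosome 16 at 9924157 (level 4.30, RNA 5178 and 6136, DNA 310 and 445) and on chromosome 7 at 4739913 (4.25, RNA 799 and 992, DNA 60 in each). The fifth, in pool D at 8616715 of chromosome 10 (4.23), had only 18 and 13 DNA counts at dox 0 and 109 and 178 at 100 ng/ml. Its RNA went from 245 and 244 counts to none, at least 1248-fold lower by RNA over DNA (edgeR adjusted p = 2.27e-05), a bound that carries the change in DNA.

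The lowest reporter was all but silent from the start. On chromosome 3, the pool B reporter at 8053403 had no RNA count in either dox 0 culture with 4367 and 5174 DNA counts, a level of -11.52, and its only RNA was 3 counts in 1 culture at 0.01 ng/ml and 18 in 1 culture at 0.1 ng/ml. Those 18 counts gave it a higher call at 0.1 ng/ml (edgeR adjusted p = 0.0262). In pool C, those at 8009586 of chromosome 18 and 8516498 of chromosome 12 had no RNA in any library, with 486 and 226 and with 195 and 192 DNA counts at dox 0. The other pair, in pool A at 8266512 of chromosome 1 and in pool D at 6469381 of chromosome 9, held 2 and 5 and then 3 and 0 RNA counts. All 5 lay between 6.47 and 8.52 Mb. They were chosen as the lowest and are themselves part of the low mean levels of that stretch.

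The 5 reporters closest to a chromosome start all lay on chromosome 11, within 30009 bp, and did not share a level. At dox 0 they stood, from the start inward, at -2.78 (pool C, 3046674), 3.22 (pool B, 3057638), -1.69 (pool B, 3060547), -5.43 (pool D, 3068197) and -2.91 (pool D, 3076683). The pair of pool B, whose barcodes are given above, is 2909 bp apart on opposite strands in the same pool, with 2182 and 2319 RNA counts for the first and 59 and 73 for the second at similar DNA counts (356 and 423, 280 and 428). These neighbours thus stood on either side of the autosomal mean. At 100 ng/ml RNA was left in 1 culture each of the last 3 of the 5, with 1, 90 and 40 counts. The 90 counts gave the pool D reporter at 3068197 a higher call (edgeR adjusted p = 0.0425), though its other culture had none and it had 3 and 2 counts at dox 0.

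The 99 reporters called lower at 0.1 ng/ml had a median log2 change of -7.52, and 74 of them had no RNA in either culture at that dose. The 3 with the most RNA at dox 0 kept RNA in both cultures, and their changes were smaller. On chromosome 7, the pool C reporter at 3617299 went from 3156 and 3518 RNA counts to 419 and 194 (log2 change -2.42 ± 0.65, edgeR adjusted p = 0.0163). On chromosome 17, the pool B reporter at 5770918 went from 2224 and 2416 to 120 and 199 (-2.16 ± 0.67, edgeR adjusted p = 0.0309). The pool A reporter at 5438940 changed by -1.40 ± 0.46 (edgeR adjusted p = 0.0391). Each of the 3 calls was lost without either dox 0 replicate (adjusted p from 0.0958 to 0.223), and the last pair also when the culture number was added as a replicate block (adjusted p = 0.063 and 0.0762).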

How the data were processed

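Barcodes in cDNA (polyA RNA, oligo-dT primed) and genomic DNA of 64 libraries were counted, 16 per pool, and insertion sites came from 16 mapping libraries. The authors deposited raw whole-number counts per reporter with mm9 positions, and Bowtie2 2.0 is named per the submitters' processing notes; the steps from reads to counts are not stated there. Levels are log2((RNA + 1)/library total) minus log2((DNA + 1)/library total), compared over the 4 pools with exact two-sided permutation tests (scipy 1.17.1, smallest p 0.13); differences between groups of 1 library do not depend on its scaling. Trends were tested over the 331776 orders of doses within pools. Calls used edgeR 4.0.16 (quasi-likelihood, assay by dose, TMM within each assay, Benjamini-Hochberg within pool, 0.05), with DESeq2 1.42.0 as an alternative, and the calling script was tested on simulated data. The approximate SE of a change is its size over the square root of F. Replicate numbers pair samples, since the labels make a number 1 of the 2 cultures of a pool, divided over the doses; deviations of same-numbered samples had correlations of -0.05 to 0.05 (24 values). Named reporters are the 5 highest and lowest at dox 0, the 5 nearest a start, the 5 (100 ng/ml) or 3 (0.1 ng/ml) called lower with most RNA at dox 0 or called higher with the largest change and RNA in both cultures, the 5 highest at 100 ng/ml with RNA in both, and 3 on each side of the boundary; any called at 0.01 ng/ml would have been added. Of the 1 Mb windows holding 5 or more reporters, the 3 highest and 3 lowest at dox 0 were named. Members and lists were chosen with earlier results of these data known. Genes around the reporters were not analysed here, because the gene tables at hand are of another build.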

Additional observations from a re-analysis of the deposited data

Results flagged for a closer look

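In 40 sets of 4 pool values, 2 held a pool far from the others; chance gives about 1 in 20. The level difference between reporters below 10 Mb and the interior at dox 0 was -0.25 in pool C, while the other pools lay between -0.43 and -0.47. The mean level from 9 to 10 Mb at dox 0 was -1.03 in pool A, while the other pools lay between -0.55 and -0.61.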

How the results depend on the processing

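For 36 results and 548 alternative values, 485 were labelled the same, 16 weaker, 1 stronger, 10 moved and 36 reversed. Differences over 4 pools could only be the same or reversed, by their sign, since their exact permutation test cannot pass 0.05. Counts of calls were the same unless they changed by much. At 100 ng/ml 299 lower by DESeq2's Wald test was the same as 246, while at 0.1 ng/ml 154 with DESeq2 size factors had moved from 99. The number labelled the same is therefore not a measure of robustness. The comparisons with 10 to 20 Mb, with 5 to 10 Mb and without chromosomes 7 and 19, and a pseudocount of 50, were chosen after seeing the data; the cause of each change was not tested. With a boundary at 5 Mb, levels at dox 0, 0.01 and 0.1 ng/ml were 0.31, 0.34 and 0.55, shares without RNA -0.27, -0.044 and -1.68 points, and the share trend -3.70 (exact permutation p = 0.00289). With the interior from 10 to 20 Mb the levels were 0.32, 0.31 and 0.54, the shares -0.052, -0.16 and -2.55 points and the level trend 0.051. The level at 100 ng/ml was -0.023 with 1 Mb blocks, -0.055 within chromosomes, -0.090 without chromosome 7, -0.29 without chromosomes 7 and 19, -0.16 with a boundary at 20 Mb, -0.17 from 5 to 10 Mb, and -0.10 to 0.20 leaving out 1 chromosome, pool or culture (lowest without chromosome 16, and below 0 without pool C). At 0.1 ng/ml it was 0.090 as a median and 0.048 from summed counts. The share at 100 ng/ml and its trend were 1.55 and 0.66 without chromosomes 7 and 19, 0.19 and 0.30 with a boundary at 20 Mb, 2.58 and 0.93 from 5 to 10 Mb and 0.85 and 0.30 counting reporters without RNA in at least 1 culture; without chromosome 7 the trend was 0.014. Leaving out a pool or culture gave -2.61 to 0.77 for that share, -0.68 to 0.24 for its trend (both highest without the second culture) and -0.20 to 0.95 for the share at 0.01 ng/ml, which was -0.11 with a DNA minimum of 100. Called lower at 0.1 ng/ml were 190 by DESeq2's Wald test, 154 with DESeq2 size factors, 165 with library totals and 63 to 130 leaving out a replicate; called higher were 34 with size factors, 30 with totals and 34 to 53. At 100 ng/ml totals gave 39 higher, and at 0.01 ng/ml DESeq2 gave 2 lower and 3 higher. With the replicate block 91 were lower and 48 higher at 0.1 ng/ml, and 238 and 60 at 100 ng/ml; among named reporters it ended the calls of 2, both given above. Few RNA counts limit levels at 100 ng/ml, where the median count was 0.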
